A study of Homo sapiens with 10 samples.

Results

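The 2 short hairpin RNAs against DNMT1 were compared with each other: the 2 arrays of MM.1S cells carrying shDNMT1#1 against the 2 arrays of MM.1S cells carrying shDNMT1#2. These 4 arrays, of 10 in the series, were taken by their titles, and no control array entered the difference itself. MM.1S is an established human multiple myeloma cell line, that is, a line of malignant plasma cells. All groups were made the same way: the cells received a hairpin by lentivirus, and total RNA was extracted 48 h after infection and read on an Affymetrix 3' expression array. The remaining arrays are 2 of a luciferase hairpin (shLuc), which the labels describe as the control of the HDAC3 hairpins, and 2 each of shHDAC3#1 and shHDAC3#2. They helped to estimate the spread between replicates, and shLuc shows below on which side of control each DNMT1 hairpin lay. The sources used here give neither the hairpin sequences nor whether shLuc and the DNMT1 hairpins were handled and normalized in 1 run. Since the labels name no separate cultures or clones, p-values reflect only how far these arrays vary, and that variation may be technical.

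DNMT1 is the maintenance DNA methyltransferase. It copies methylation from the parental strand to newly made DNA, with UHRF1, which brings it to hemimethylated sites, and loss of DNMT1 dilutes methylation as cells divide. A short hairpin RNA is processed into a small guide RNA that directs cleavage of its target. Its seed can also pair with other messages, so that 2 hairpins with different sequences share their target but not their other matches.

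The targeted transcript was examined in every array. DNMT1 stood at 8.49 and 8.33 (log2 RMA value) in the shLuc arrays, at 5.76 and 6.0 in shDNMT1#1, and at 6.27 and 6.07 in shDNMT1#2. Both hairpins thus lay well below control, at 17.3% and 21.1% of the shLuc level, and the DNMT1 transcript was no lower with shDNMT1#2. The hairpins differed by 0.29 ± 0.12 (log2 difference, shDNMT1#2 minus shDNMT1#1, ± limma's SE, n = 2 arrays each), with a 95% interval of 0.04 to 0.54 and a limma adjusted p = 0.14. The 4 values of the hairpins did not overlap, but the difference was not called at the adjusted p threshold of 0.05. DNMT1 is read by 1 probe set, of a kind that can cross-hybridize, and the protein was not measured.

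Beyond the target, the hairpins differed in many genes. Of 19775 genes, each read by its brightest probe set, 2365 (12%) were called between the hairpins: 706 (3.57%) were higher and 1659 (8.39%) lower in shDNMT1#2, so that 70.2% of the calls were lower. A further quantile normalization gave 1107 higher and 1449 lower, or 56.7% lower. At least 2-fold differences were called for 230 genes (1.16%), of which 31 (0.157%) were higher and 199 (1.01%) lower in shDNMT1#2. Arrays of the same hairpin differed by a root mean square of 0.182 to 0.209 (log2) over all genes, and arrays of different DNMT1 hairpins by 0.301 to 0.330. Where a called gene had a second probe set with a mean level of 5 or more, that probe set moved the same way in 941 of 1135 genes (82.9%), and in 110 of 119 genes (92.4%) at least 2-fold apart. It was itself called in that direction in 451 (39.7%) and 78 (65.5%) of them. Without shDNMT1#2 replicate 2 the calls numbered 1417, with 393 higher and 1024 lower; higher calls numbered 416 without shDNMT1#1 replicate 2 and 419 without shDNMT1#2 replicate 1. Of 209 called genes chosen to be named, 104 had another probe set with a mean of 5 or more, and in 27 of these such a probe set had the opposite sign: B2M, BCL2L11, CASP8, CCND3, CDK2, CTNNB1, E2F2, EGLN1, EIF4G2, ELOVL5, GSK3B, HDAC5, HNRNPA3, IL6ST, MACROH2A1, MAF, MAX, MLX, MSH6, NOP16, RHOB, SAR1B, SQLE, TGFBR2, TMED5, TRA2A and XBP1. For MBD4, TET1, HDAC7, SPCS2 and DCAF6 a dim probe set that is not of the cross-hybridizing kind had the opposite sign. Leaving out an array, or another setting, moved 148 of the list counts that follow by over 1.5 times and left 554 within that margin, and small counts are to be read with that spread. Each list count is also to be read against the shares over all genes, 3.57% higher and 8.39% lower.

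The spread of values on an array moved with the hairpin. Over all probe sets, log2 values had an SD of 1.91 and 1.90 in shDNMT1#1, 1.86 and 1.84 in shDNMT1#2, and 1.94 and 1.93 in shLuc. In the 4944 genes with the highest mean level, the median difference between the hairpins was -0.058 and 19.1% were called lower. In the 4944 with the lowest level the median was 0.077 and 1.29% were called lower. After the further quantile normalization these medians were 0.043 for the brightest and 0.021 for the dimmest. Several counts below are given with that normalization beside them, and the part of array spread in the other results was not tested. The 3' minus 5' difference of the ACTB control probe sets, a sign of RNA quality, was 0.81 and 0.63 in shDNMT1#1 and 0.67 and 0.75 in shDNMT1#2, so the groups overlapped. Few markers of other cell types were called: 0 of 17 T cell and NK markers, 1 of 13 myeloid, 1 of 9 B cell, 0 of 8 erythroid and megakaryocyte, and 2 of 16 stromal, endothelial and epithelial markers. The called ones were all higher in shDNMT1#2: FCER1G (0.49), CR2 (1.27), EPCAM (1.07) and LUM (0.40). Their summed log2 levels ran from 92.7 to 94.3 and 93.6 to 94.2 for T cells (shDNMT1#1, then shDNMT1#2), 72.8 to 73.5 and 74.7 to 75.1 for myeloid cells, and 59.6 to 60.9 and 61.0 to 61.5 for B cells. They were 48.5 to 48.8 and 48.7 to 49.0 for erythroid and megakaryocyte cells, and 96.6 to 97.1 and 99.1 to 99.4 for stromal, endothelial and epithelial cells. The myeloid, B cell and stromal sums thus lay higher in both shDNMT1#2 arrays, and their part in the results was not tested. The plasma cell markers SDC1 (9.48 and 9.43) and JCHAIN (12.98 and 12.59) were bright with both hairpins. CD38, also of plasma cells, was at a middle level (6.04 and 6.67) and was called higher in shDNMT1#2, as was MZB1 (2.20). JCHAIN (-0.40), SLAMF7 (-0.50) and XBP1 (-0.49) were called lower, and SDC1, TNFRSF17, IRF4 and PRDM1 were not called. Of the B cell markers, MS4A1, which encodes CD20, was dim with both hairpins (3.09 and 3.22). The B cell markers CD22 (8.06 and 7.99), CD79A (8.31 and 8.39) and PAX5 (7.625 and 7.68) were bright with both. The stromal marker COL1A1 (8.51 and 8.58) and the erythroid marker HBB (7.54 and 7.28) reached similar levels. A level of this kind therefore does not by itself show expression of a cell type's genes.

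**Figure D1:**
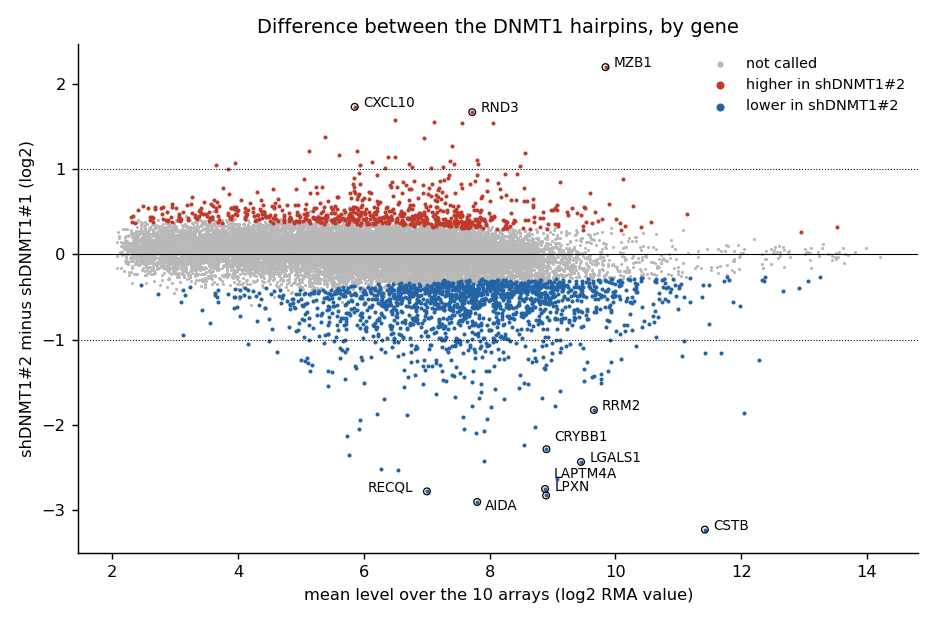
Each point is a gene, with its mean log2 RMA value over the 10 arrays on the horizontal axis and the log2 difference shDNMT1#2 minus shDNMT1#1 on the vertical axis. Red and blue points are the 706 higher and 1659 lower calls, dotted lines mark a 2-fold difference, and the largest differences, such as CSTB at -3.23, lie on the lower side.

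The genes furthest apart came from many functions. CSTB, an inhibitor of lysosomal cysteine proteases, stood at 12.34 and 12.38 in shDNMT1#1 and at 9.16 and 9.09 in shDNMT1#2, against 12.07 and 12.10 in shLuc. That is a 9.40-fold difference between hairpins of the same target (-3.23 ± 0.08, limma adjusted p = 2.2e-16). The CSTB transcript was thus at 121% of control with shDNMT1#1 and at 12.9% with shDNMT1#2. AIDA, which binds axin, was at 8.95 and 8.55 against 5.76 and 5.92 (-2.91 ± 0.12), and LPXN, a focal adhesion adaptor of blood cells, at 9.92 and 9.92 against 7.12 and 7.06 (-2.83 ± 0.10). RECQL, a DNA helicase, was at 8.17 and 7.52 against 5.03 and 5.10 (-2.78 ± 0.15), and LAPTM4A, a membrane protein of lysosomes, at 9.48 and 9.30 against 6.72 and 6.55 (-2.75 ± 0.10). In each of these 5 genes both shDNMT1#2 arrays lay far below all shDNMT1#1 and shLuc arrays. HSD17B12, which reduces long-chain fatty acid intermediates (-2.64), PSIP1, a chromatin-bound co-activator (-2.53), SESN3, a stress-induced regulator of mTORC1 (-2.52), SPRED1, an inhibitor of RAS and ERK signalling (-2.36), and MAMDC2 (-2.14) followed. TMEM14B (-2.24) and TMEM14C (-2.09) are similar in sequence, and their probe sets might read each other's transcript. ABHD3, a phospholipase (-2.08), closed the 15 lowest, which also held LGALS1 and CRYBB1. Without probe sets that can cross-hybridize, LPXN and PSIP1 stood at -0.04 and -0.20, but a further probe set of PSIP1 of that level and kind gave -1.89. The LPXN probe set used there is dim, with a mean of 4.24. A second probe set of AIDA gave -2.70, of CSTB -1.11, and 3 others of RECQL -2.05, -0.82 and -1.82.

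Some of these genes moved in opposite directions from control. CRYBB1, a crystallin gene, stood at 8.46 and 8.49 in shLuc, at 10.62 and 10.32 in shDNMT1#1 and at 8.19 and 8.17 in shDNMT1#2. It was far above control with shDNMT1#1 (log2 difference 2.00) and slightly below control with shDNMT1#2 (-0.29). SGK1, a kinase induced by glucocorticoids and serum, stood at 7.97 and 7.68 in shLuc, at 9.4 and 9.24 in shDNMT1#1 and at 7.46 and 7.32 in shDNMT1#2. Its difference between hairpins was -1.93 ± 0.11 (limma adjusted p = 6.4e-11). A report of SGK1 or CRYBB1 as raised by DNMT1 knockdown would rest on shDNMT1#1 alone, since the shDNMT1#2 arrays lay below both shLuc arrays.

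In the other direction, MZB1 led. MZB1 is a chaperone that helps plasma cells assemble and secrete antibody, and it stood at 10.22 and 10.36 in shLuc, at 8.71 and 8.56 in shDNMT1#1 and at 10.99 and 10.68 in shDNMT1#2. It fell to 31.8% of control with shDNMT1#1 and was at 146% with shDNMT1#2, a 4.60-fold difference (2.20 ± 0.11, limma adjusted p = 1e-11), and its other probe set gave 2.55. RND3 stood at 7.41 and 7.09 in shDNMT1#1 and at 9.05 and 8.79 in shDNMT1#2 (1.67 ± 0.12), with shLuc at 7.71 and 7.45. MTX2, a mitochondrial import protein, stood at 6.29 and 6.13 against 7.82 and 7.67 (1.54 ± 0.12), with shLuc at 8.43 and 8.05. So RND3 was above control with shDNMT1#2, and MTX2 was below control with both hairpins, further with shDNMT1#1. The others of the 15 highest were CXCL10 (1.73), SMIM13 (1.57), HOPX, a homeodomain-only protein (1.56), CLDND1 (1.55), GXYLT1, which adds xylose to Notch (1.38), CARNMT1 (1.37) and the complement receptor CR2 (1.27). SLC30A7, a zinc transporter of the Golgi (1.22), ACVR1C, a nodal and activin receptor (1.21), CYP26A1, which degrades retinoic acid (1.19), HLA-DPA1 (1.17) and ZDHHC9, a palmitoyltransferase (1.15), completed them. For HOPX, CR2 and ZDHHC9, the probe sets not of the cross-hybridizing kind gave 0.12, 0.23 and 0.29, and that of CR2 is dim, with a mean of 2.74. Averaging all its probe sets left SMIM13 at 0.41, and none of these values was called. Of the 30 genes, 24 were called under each of the 13 alternatives that gave them a value, and the exceptions were those 4 with LPXN and PSIP1. AIDA has no value without probe sets that can cross-hybridize.

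**Figure D2:**
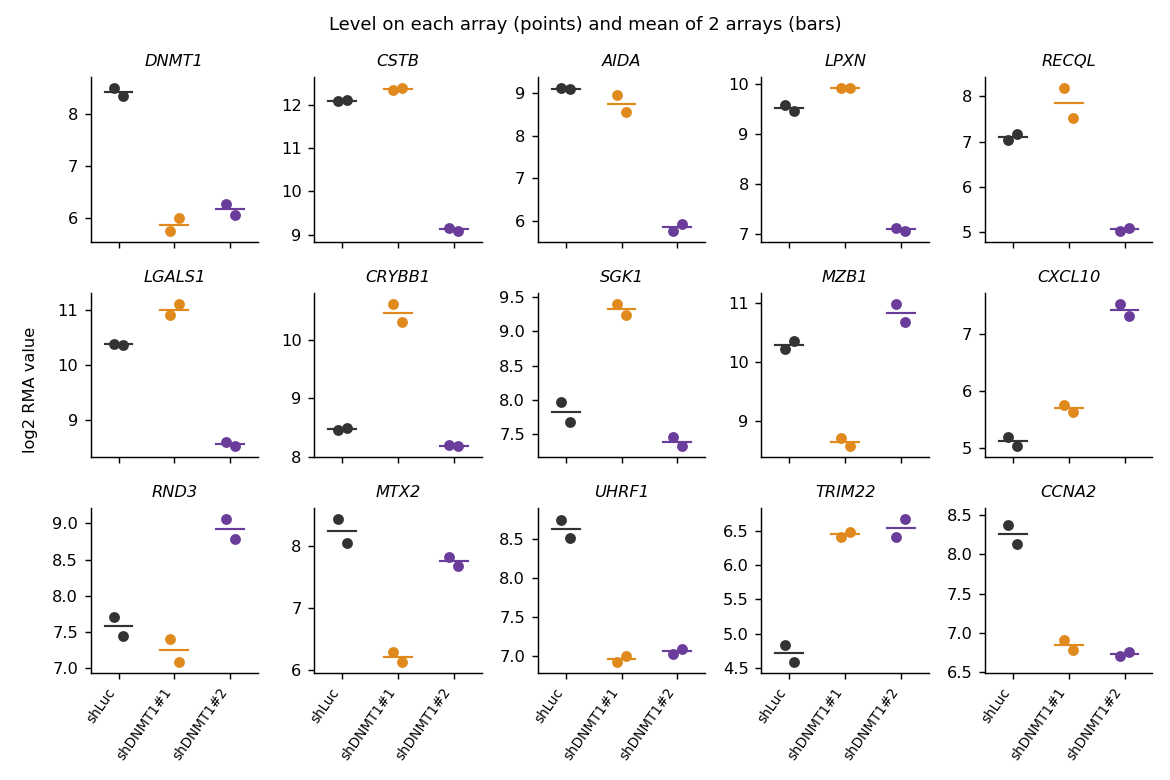
Log2 RMA values of 15 genes on the shLuc, shDNMT1#1 and shDNMT1#2 arrays, with each array as a point and the mean of 2 arrays as a bar; the vertical axes do not start at 0. DNMT1, UHRF1, TRIM22 and CCNA2 lie at similar levels with both hairpins, whereas CSTB, AIDA, LPXN, RECQL and LGALS1 are low in shDNMT1#2 only and MZB1 and MTX2 are lowest in shDNMT1#1.

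Mitosis had the largest share of called genes among the 49 functions examined. Of 49 measured genes of G2/M and mitosis, 34 were lower in shDNMT1#2 and 0 higher, with a median difference of -0.55 against 0.026 over all genes. The further quantile normalization gave 33 lower and a median of -0.50. Against shLuc the median was -0.43 for shDNMT1#1 and -1.04 for shDNMT1#2. SPC25, a subunit of the NDC80 kinetochore complex, stood at 6.80 and 6.65 in shLuc, at 6.90 and 6.38 in shDNMT1#1 and at 5.09 and 5.16 in shDNMT1#2 (-1.51 ± 0.14). CDK1, the kinase that drives entry into mitosis, stood at 9.73 and 9.73, then 9.27 and 8.95, then 7.81 and 7.80 in the same order (-1.30 ± 0.11). SPC25 was thus near control with shDNMT1#1, whereas CDK1 lay below control with both hairpins and further with shDNMT1#2. RACGAP1, which acts in cytokinesis (-1.47 ± 0.11), was below control with both and further with shDNMT1#2, and TOP2A, which untangles sister chromatids (-1.14 ± 0.14), was called against shLuc with shDNMT1#2 but not with shDNMT1#1. CCNA2, the cyclin of S phase and G2, lay close with both: it stood at 8.37 and 8.13 in shLuc, at 6.91 and 6.78 in shDNMT1#1 and at 6.70 and 6.75 in shDNMT1#2, with a difference of -0.12 ± 0.12 and a 95% interval of -0.36 to 0.13. Without probe sets that can cross-hybridize, 22 of 38 measured members were called lower, and leaving out an array of either hairpin left 25 to 32.

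Genes of mitosis share promoter elements, and some of their promoters are shown for that reason. They were taken from the members called lower in shDNMT1#2. A match to the first element described next was a condition for printing them, so its presence in each is no result. The CHR element (TTTGAA) and the CCAAT box (CCAAT) are bound by the DREAM or MMB complexes and by NF-Y. In the sequences below, taken from RefSeq (GRCh38.p14) and covering the 250 bases before the gene start on the gene's strand, capitals mark matches to TTTGAA or CCAAT on either strand. SPC25 lies at chr2:168890431-168890680 (minus strand) with 1 CHR and 2 CCAAT matches, CDK1 at chr10:60778081-60778330 (plus strand) with 1 of each, and TOP2A at chr17:40417897-40418146 (minus strand) with 2 and 4.
SPC25: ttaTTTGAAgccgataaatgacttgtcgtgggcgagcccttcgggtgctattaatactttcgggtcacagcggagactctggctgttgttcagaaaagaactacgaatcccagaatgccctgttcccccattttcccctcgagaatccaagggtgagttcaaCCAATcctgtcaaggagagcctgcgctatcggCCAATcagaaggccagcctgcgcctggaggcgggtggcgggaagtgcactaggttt
CDK1: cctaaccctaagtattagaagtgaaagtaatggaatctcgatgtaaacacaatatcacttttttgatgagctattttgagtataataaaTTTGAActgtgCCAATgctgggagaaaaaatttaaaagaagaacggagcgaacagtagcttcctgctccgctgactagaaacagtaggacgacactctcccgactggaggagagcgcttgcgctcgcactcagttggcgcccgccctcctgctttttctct
TOP2A: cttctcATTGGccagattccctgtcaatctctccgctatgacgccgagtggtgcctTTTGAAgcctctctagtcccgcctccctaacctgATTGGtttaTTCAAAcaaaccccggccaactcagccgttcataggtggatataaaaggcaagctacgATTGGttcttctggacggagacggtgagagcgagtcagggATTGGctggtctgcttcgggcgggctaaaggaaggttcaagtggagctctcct
Of 41 members of the list with a promoter in the RefSeq table, 23 (56.1%) held TTTGAA and 33 (80.5%) held CCAAT within these 250 bases. Among the 30 of them called lower in shDNMT1#2 the counts were 17 (56.7%) and 27 (90%). Over the 15384 genes tested that had a promoter there, the shares were 10.6% and 34.1%. A match to these letters is a description and not a binding site shown in these cells.

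**Figure D3:**
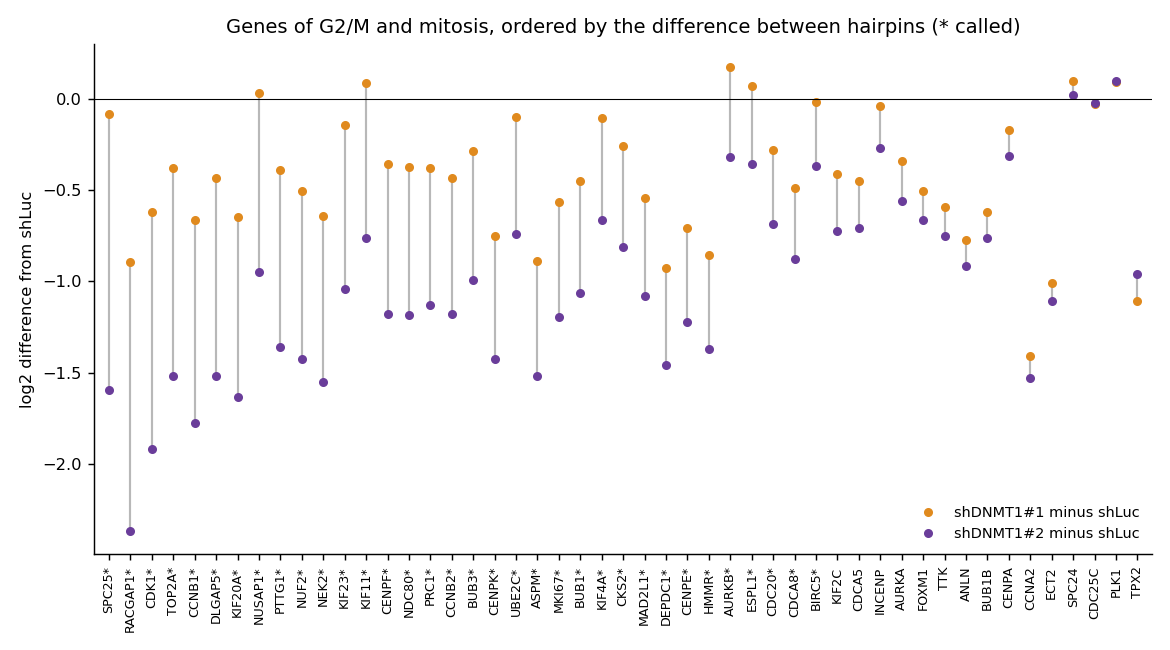
Log2 difference from shLuc of each of the 49 measured genes of G2/M and mitosis, for shDNMT1#1 (orange) and shDNMT1#2 (purple), ordered along the horizontal axis by the difference between the hairpins. A star marks the 34 genes called between the hairpins; the purple point lies below the orange one for each of them, while CCNA2, ECT2 and TPX2 are low with both hairpins.

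Genes of DNA replication showed the same direction in fewer members. Of 49 measured genes, 18 were lower in shDNMT1#2 and 0 higher, with a median of -0.29. RRM2, a subunit of ribonucleotide reductase, stood at 10.47 and 10.51 in shLuc, at 10.42 and 10.36 in shDNMT1#1 and at 8.57 and 8.57 in shDNMT1#2 (-1.83 ± 0.09, limma adjusted p = 5e-12). RRM2 was near control with shDNMT1#1 and at 26.4% of control with shDNMT1#2. TYMS, which makes thymidylate (-0.82), the replication kinase CDC7 (-0.89) and the clamp loader subunit RFC4 (-0.68) followed. Without shDNMT1#1 replicate 1 or shDNMT1#2 replicate 2 the lower calls were 8 and 9, and without probe sets that can cross-hybridize 11. In the E2F and RB network 6 of 18 genes were lower and 0 higher, among them the transcription factors E2F2 (-0.86) and E2F8 (-0.72) and the pocket proteins RB1 (-0.63) and RBL2 (-0.59).

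Regulators of G1 split. Of 12 measured CDK inhibitors and G1 cyclins or kinases, 5 were lower and 3 higher in shDNMT1#2. CDKN1B, which encodes p27 (-0.67 ± 0.12), CDK2 (-0.59), CDK4 (-0.56) and CCND3 (-0.55) were lower. CDKN1A, which encodes p21, stood at 9.64 and 9.51 in shLuc, at 10.61 and 10.52 in shDNMT1#1 and at 10.94 and 10.85 in shDNMT1#2. It lay above control with both hairpins, and by a little more with shDNMT1#2 (0.33 ± 0.09, limma adjusted p = 0.017). MYC, at 11.01 and 10.87 against 11.48 and 11.34, was higher in shDNMT1#2 (0.47 ± 0.09, limma adjusted p = 0.00069), above both shLuc arrays. Of the MYC network 3 of 13 genes were higher and 0 lower, but the partners MLX (1.06) and MAX (0.40) rested on probe sets that can cross-hybridize, and 0 of 10 members were called without such probe sets. The higher calls of the G1 list numbered 0 without shDNMT1#2 replicate 1 and 1 without shDNMT1#2 replicate 2.

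Targets of p53 and genes of cell death did not move as a group. Of 34 measured p53 pathway genes, 8 were lower and 4 higher in shDNMT1#2. PLK2, a target of p53, stood at 6.23 and 5.97 in shLuc, at 7.89 and 7.39 in shDNMT1#1 and at 6.52 and 6.43 in shDNMT1#2 (-1.17 ± 0.16). RRM2B, the p53-induced ribonucleotide reductase subunit, was likewise highest in shDNMT1#1, at 6.55 and 6.09 against 5.22 and 5.17 (-1.13 ± 0.14). The pro-apoptotic PMAIP1, also a p53 target, moved the other way (0.69 ± 0.15). The higher calls fell to 2 without shDNMT1#1 replicate 2 or shDNMT1#2 replicate 1, and to 0 without probe sets that can cross-hybridize. In the BCL2 and IAP list 6 of 26 genes were lower, among them CYCS, which encodes cytochrome c (-1.16), and CASP8 (-0.64), and 2 were higher, including BCL2L11, which encodes BIM (0.54), against 5 lower and 4 higher after the further quantile normalization. Genes of DNA repair had 9 of 47 lower and 0 higher. RNF168, which ubiquitinates histones at breaks, stood at 6.88 and 6.67 against 5.18 and 5.25 (-1.56 ± 0.13), and the mismatch repair gene MSH6 at 7.78 and 7.47 against 6.27 and 6.13 (-1.43 ± 0.12). The cohesin subunit RAD21 (-1.10) and PARP1 (-0.68) were lower by less. The 9 lower calls fell to 4 without shDNMT1#1 replicate 1 and to 5 without either shDNMT1#2 array.

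Genes of the actin cytoskeleton and of adhesion were the other large group, and here the median of shDNMT1#1 lay near control. Of 50 measured genes 25 were lower in shDNMT1#2 and 3 higher, with a median of -0.29. Against shLuc the median was 0.06 for shDNMT1#1 and -0.32 for shDNMT1#2. Single members still moved with shDNMT1#1: 11 were called against shLuc, 4 higher and 7 lower, where 8.15% of all genes were called. With shDNMT1#2, 30 were called, 3 higher and 27 lower, where 26.8% of all genes were called. The further quantile normalization left 22 lower and 3 higher. LGALS1, which encodes galectin-1, stood at 10.38 and 10.37 in shLuc, at 10.90 and 11.11 in shDNMT1#1 and at 8.61 and 8.52 in shDNMT1#2 (-2.44 ± 0.10). PFN1, which loads actin monomers, stood at 9.86 and 9.99, then 10.05 and 10.08, then 8.63 and 8.65 in the same order (-1.42 ± 0.11). LGALS1 thus lay on opposite sides of control with the 2 hairpins, and PFN1 was low with shDNMT1#2 alone. Chosen after their values were seen, ACTB stood at 12.59 and 12.79 against 11.49 and 11.40 (-1.24 ± 0.09) and the actin-binding TMSB4X at 12.74 and 12.56 against 10.85 and 10.72 (-1.86 ± 0.09). By contrast GAPDH differed by 0.01 ± 0.08. RHOB (-1.44 ± 0.21) was unevenly measured, since its shLuc arrays lay at 8.88 and 7.78 and its other 4 probe sets gave -0.14 to 0.19. Without probe sets that can cross-hybridize, 13 of 38 members were lower and 0 higher.

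Surface antigens and homing receptors of plasma cells differed in 14 of 28 measured genes, 12 lower and 2 higher in shDNMT1#2. The integrin subunit ITGB1, which pairs with ITGA4 to hold myeloma cells in marrow, stood at 8.99 and 8.75 in shDNMT1#1 and at 7.32 and 7.28 in shDNMT1#2, with shLuc at 9.35 and 9.13 (-1.57 ± 0.11). CXCR4, the marrow homing receptor, stood at 8.14 and 7.71 against 6.81 and 6.73 (-1.15 ± 0.14), with shLuc at 8.10 and 7.98. For CXCR4 only shDNMT1#2 lay below control. CCR1, a chemokine receptor of myeloma cells, stood at 9.77 and 9.78 in shLuc, 10.30 and 10.35 in shDNMT1#1 and 8.96 and 8.88 in shDNMT1#2 (-1.41 ± 0.09), on opposite sides of control. CCR2 was raised with shDNMT1#1 alone, at 6.50 and 6.18 against 5.28 and 5.20, with shLuc at 5.27 and 4.92 (-1.10 ± 0.15). After the further quantile normalization 11 genes were lower and 2 higher, but the median moved from -0.21 to -0.02. ITGB1 has 2 other probe sets at mean levels above 5, which gave -1.17 and -1.16, whereas the probe set kept when cross-hybridizing ones were left out is dim and gave 0.35.

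The identity factors of plasma cells differed less. Of 25 measured transcription factors of plasma and B cells, 4 were lower and 2 higher, and without shDNMT1#2 replicate 2 there was 1 lower and 0 higher. IRF4, on which myeloma cells depend, stood at 9.44 and 9.50 in shLuc, at 8.81 and 8.71 in shDNMT1#1 and at 9.09 and 8.99 in shDNMT1#2. It was below control with both hairpins, with a difference of 0.28 ± 0.09 (95% interval 0.08 to 0.47, limma adjusted p = 0.062). PRDM1, the master regulator of plasma cells, differed by -0.25 ± 0.12 (95% interval -0.50 to -0.01, limma adjusted p = 0.19). XBP1, which drives the secretory program, was lower in shDNMT1#2 (-0.49 ± 0.09), as were ID2 (-0.45) and MAF (-0.34). The 4 lower calls were 2 without shDNMT1#1 replicate 1 or shDNMT1#2 replicate 1. IL6ST, the signal-transducing chain of the IL-6 receptor, stood at 9.03 and 8.77 against 7.70 and 7.70 (-1.20 ± 0.11), with shLuc at 9.69 and 9.66. Its other 6 probe sets ran from -0.96 to 0.23. JAK1 was higher in shDNMT1#2 (0.42) and, of 19 genes of IL-6, JAK and STAT3, 1 was lower and 2 higher.

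The secretory pathway differed gene by gene. Of 28 genes of antibody secretion 7 were lower and 3 higher in shDNMT1#2, and the further quantile normalization gave 4 lower and 10 higher, so no direction is given for the list. Beside MZB1, which was higher, the translocon gene TRAM1 stood at 9.91 and 9.86 against 8.62 and 8.46 (-1.35 ± 0.10). SPCS2, a subunit of signal peptidase (-0.73), and TRAM2 (-0.50) were lower as well, but other probe sets of TRAM2 gave -0.07 and -0.17 and were not called. Without shDNMT1#1 replicate 1 the list had 3 lower and 1 higher, without shDNMT1#2 replicate 1 it had 1 higher, and without shDNMT1#2 replicate 2 it had 4 lower. In ER folding 3 of 29 were lower and 2 higher: the stress sensor EIF2AK3 (0.70) and the co-chaperone DNAJB9 (0.65) were higher, and EDEM1, which delivers misfolded glycoproteins for degradation (-0.57), was lower. After the further quantile normalization 8 were higher and 3 lower. Both EIF2AK3 and DNAJB9 lay below control with both hairpins, and further with shDNMT1#1. Of 39 genes of ER-Golgi transport 8 were lower and 2 higher, led by the COPII subunit SEC23A (-1.27) and the cargo receptor TMED10 (-1.24), with TMED5 (-0.59) and SAR1B (-0.58). A second bright probe set of TMED10 gave -0.14, which was not called. The further quantile normalization gave 8 lower and 6 higher. The lower calls there were 3 without shDNMT1#1 replicate 1 and 5 without shDNMT1#2 replicate 2. Of 40 genes of glycosylation 2 were lower, GALNT7 (-1.33) and DPM2 (-1.11), and 5 higher, including UAP1 (0.58) and GALNT3 (0.53), against 3 lower and 7 higher after that normalization.

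Antigen presentation split by class. Of 15 genes of HLA class I and peptide loading 6 were lower in shDNMT1#2 and 0 higher, and of 19 genes of HLA class II 2 were lower and 6 higher. HLA-DPA1, a class II chain, stood at 6.16 and 6.06 in shLuc, at 5.35 and 5.25 in shDNMT1#1 and at 6.42 and 6.52 in shDNMT1#2 (1.17 ± 0.12). HLA-DRA stood at 8.17 and 8.15 against 9.0 and 8.86 (0.77 ± 0.11), and HLA-DMA, which loads peptides on class II, at 5.74 and 5.85 against 6.39 and 6.33 (0.56 ± 0.13). Those class II genes were above control with shDNMT1#2, while RFX5, a transcription factor of class II genes, was lower (-0.75 ± 0.09). A second probe set of RFX5, at a mean of 7.48, gave -0.23 and was not called. In class I, ERAP1, which trims peptides (-1.01), HLA-E (-0.52), B2M (-0.43) and TAPBP (-0.34) were lower. Other probe sets of ERAP1 with a mean above 5 gave -0.09 and -0.28 and were not called. The class I count was 3 after the further quantile normalization, and 3 without either shDNMT1#2 array. HLA genes are alike in sequence, and the split is not seen without probe sets that can cross-hybridize, where 3 of 15 class II genes were higher and 3 lower, and 1 of 11 class I genes higher and 2 lower.

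Interferon-stimulated genes hardly separated the hairpins, apart from CXCL10. Of 48 measured genes 4 were higher and 3 lower in shDNMT1#2, against shares of 3.57% and 8.39% over all genes. CXCL10, a chemokine that draws T cells, stood at 5.20 and 5.03 in shLuc, at 5.76 and 5.63 in shDNMT1#1 and at 7.54 and 7.33 in shDNMT1#2. It was at 149% of control with shDNMT1#1 and at 497% with shDNMT1#2 (1.73 ± 0.14, limma adjusted p = 1.4e-08). The nuclease ISG20 was also higher (0.64), and IFI6 (-0.46) and GBP1 (-0.46) were lower. TRIM22, an antiviral ubiquitin ligase, was raised alike, from 4.83 and 4.58 in shLuc to 6.42 and 6.49 in shDNMT1#1 and 6.41 and 6.68 in shDNMT1#2. Its difference was 0.09 ± 0.14, with a 95% interval of -0.21 to 0.38. The higher calls were 2 without shDNMT1#1 replicate 2 and 2 without either shDNMT1#2 array, and the lower calls 1 without either shDNMT1#2 array. Among sensors and signalling genes of the pathway, 3 of 28 were lower, TBK1 (-0.75), IFIH1 (-0.60) and IFNAR2 (-0.37), and 1 was higher. In the NF-kB list 3 of 28 were lower, IRF2 (-0.75), BIRC2 (-0.53) and TNFAIP3 (-0.49), and the chemokine CCL5 was higher (0.57).

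The promoter of CXCL10 is shown because CXCL10 stood apart from the rest of its list. A match to the element described next was also a condition for printing it. The 250 bases before its start (RefSeq, GRCh38.p14, chr4:76023498-76023747, minus strand) hold 1 match to the core of the interferon-stimulated response element, searched on both strands as GAAA, any 2 bases, GAAA, and set in capitals.
CXCL10: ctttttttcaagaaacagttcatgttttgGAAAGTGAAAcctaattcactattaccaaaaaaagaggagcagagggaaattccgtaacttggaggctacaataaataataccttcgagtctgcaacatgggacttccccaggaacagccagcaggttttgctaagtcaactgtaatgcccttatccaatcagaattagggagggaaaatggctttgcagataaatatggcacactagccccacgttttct
Of 39 list members with a promoter in the table, 24 (61.5%) held this element, against 2.48% of the 15384 genes tested. The element was thus common in the list, of which most members were not called between the hairpins.

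Called genes of mitochondria and of the proteasome were lower in shDNMT1#2, and these counts moved with the normalization. Of 45 measured subunits of the respiratory chain 16 were lower and 0 higher (median -0.26), whereas the further quantile normalization gave 11 lower and 7 higher (median -0.03). NDUFA8, a subunit of complex I, stood at 9.16 and 8.91 in shDNMT1#1 and at 7.41 and 7.62 in shDNMT1#2 (-1.52 ± 0.11), with shLuc at 8.90 and 8.81. NDUFA5 (-1.35), NDUFB5 (-1.01) and ATP5PB, of the ATP synthase (-1.44), were lower too, though a dim probe set of ATP5PB that is not of the cross-hybridizing kind gave 0.06. Of 39 proteasome genes 14 were lower and 0 higher (median -0.21), against 8 lower and 1 higher (median -0.02) after the further normalization. POMP, which helps assemble the core particle, stood at 10.07 and 10.21 against 8.69 and 8.58 (-1.51 ± 0.09), with shLuc at 10.16 and 10.23. POMP and NDUFA8 were thus near control with shDNMT1#1. PSMD8 (-0.84), PSMA2 (-0.58) and PSMC6 (-0.49) were lower by less. The proteasome count was 8 without shDNMT1#1 replicate 1 and 6 without shDNMT1#2 replicate 2.

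Other parts of metabolism held single large differences. In fatty acid synthesis 6 of 26 genes were lower and 2 higher. HSD17B12 stood at 10.08 and 10.05 in shLuc, at 9.76 and 9.65 in shDNMT1#1 and at 6.88 and 7.24 in shDNMT1#2, a 6.24-fold difference (-2.64 ± 0.11). The elongases ELOVL5 (-1.0) and ELOVL6 (-0.87) and the dehydratase HACD2 (-0.47) were lower too, but 3 other probe sets of ELOVL5 gave 0.01, -0.14 and -0.02, none of them called, and without either shDNMT1#2 array the lower calls were 3. Cholesterol synthesis had 5 of 25 lower and 2 higher and split within the pathway: SQLE, which epoxidises squalene, stood at 7.51 and 7.40 against 8.34 and 8.42 (0.93 ± 0.10), and HMGCS1, an early enzyme, at 7.63 and 7.65 against 6.84 and 6.94 (-0.74 ± 0.11). INSIG1 (-0.55) and STARD4 (-0.44) were lower as well, but other probe sets of INSIG1 gave -0.06 and -0.12 and were not called. The lower calls of cholesterol synthesis were 2 without shDNMT1#1 replicate 1 or shDNMT1#2 replicate 1, and 3 without shDNMT1#2 replicate 2. Mitochondrial fatty acid oxidation had 6 of 21 lower and 1 higher, with ETFA (-0.82), ACADM (-0.63), ECI2 (-0.60) and DECR1 (-0.58), and 5 lower and 3 higher after the further normalization. In the TCA cycle 5 of 19 were lower and 0 higher, led by SUCLG1 (-0.75) and DLST (-0.71), with 3 lower without shDNMT1#1 replicate 1 or shDNMT1#2 replicate 1 and 2 without shDNMT1#2 replicate 2. Glycolysis and hypoxia had 6 of 34 lower, including EGLN1 (-0.82), EPAS1 (-0.56) and NDRG1 (-0.53), and 4 higher, including ALDOC (0.55). Its lower calls were 3 without shDNMT1#2 replicate 2. In the list of ATF4 targets 8 of 35 were lower and 2 higher, from DDIT4, a stress-induced brake on mTORC1 (-1.08), VLDLR (-0.62) and TRIB3 (-0.49) to SHMT2 (0.52), with 4 lower without shDNMT1#2 replicate 2. After the further quantile normalization 5 were lower and 6 higher, so no direction is given for that list.

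Lysosomal genes included some of the widest gaps. Of 51 measured genes 9 were lower and 3 higher. SCARB2, which carries glucocerebrosidase to lysosomes, stood at 9.23 and 9.03 in shDNMT1#1 and at 7.25 and 6.96 in shDNMT1#2, with shLuc at 9.62 and 9.41 (-2.03 ± 0.12). CTSB, a protease that CSTB inhibits, stood at 8.55 and 8.60 in shLuc, at 9.57 and 9.42 in shDNMT1#1 and at 8.26 and 8.19 in shDNMT1#2 (-1.27 ± 0.10). Its other 4 probe sets ran from -1.63 to -0.68, all in the same direction. OSTM1, which works with a chloride transporter of lysosomes, stood at 3.86 and 3.97 in shLuc, at 6.35 and 6.15 in shDNMT1#1 and at 5.05 and 5.36 in shDNMT1#2 (-1.05 ± 0.15). OSTM1 was thus raised with both hairpins and more with shDNMT1#1. The sialidase NEU1 was lower in shDNMT1#2 (-0.77). The further quantile normalization gave 6 lower and 6 higher. Without shDNMT1#2 replicate 2 there were 5 lower calls, without shDNMT1#1 replicate 1 there were 5 higher, and without shDNMT1#2 replicate 1 there was 1 higher.

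Signalling lists, apart from WNT and Notch, held calls in both directions. In the RAS and ERK list 17.2% of members were lower and 6.90% higher, against 8.39% and 3.57% over all genes. Phosphoinositide, AKT and mTOR signalling had the same shares. The list of TGF-beta, BMP and SMADs had 12.5% and 8.33%, and that of WNT and Notch 6.67% and 0%. SPRED1 stood at 6.44 and 6.07 in shLuc, at 6.90 and 6.44 in shDNMT1#1 and at 4.28 and 4.34 in shDNMT1#2 (-2.36 ± 0.16). DUSP6, the ERK phosphatase, stood at 7.93 and 7.97 against 7.11 and 6.92 (-0.93 ± 0.11), and its other probe sets gave -1.33 and -2.38. Both are inhibitors of ERK signalling that ERK itself can induce, and both lay at or above control with shDNMT1#1. In the RAS and ERK list 5 of 29 genes were lower and 2 higher, the latter JUN (0.66) and JUND (0.60). Of 29 genes of phosphoinositide, AKT and mTOR signalling 5 were lower and 2 higher, with SGK1, GSK3B (-0.59) and PIK3CB (-0.57). SMURF2, a ubiquitin ligase of SMADs (-1.55 ± 0.15), was lower and SMAD5 higher (0.79 ± 0.11), in a list with 3 of 24 lower and 2 higher, and TGFBR2 was lower (-0.46), though its other probe set gave 0.18. Without shDNMT1#1 replicate 1 that list had 1 lower. Of 30 WNT and Notch genes, CTNNB1, which encodes β-catenin (-1.20 ± 0.13), and WNT10A (-0.39) were lower and 0 higher, but a second probe set of CTNNB1 at a mean of 5.9 gave 0.03.

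Genes of the nucleus and of RNA and protein handling added mostly lower calls, against 8.39% lower and 3.57% higher over all genes. Among the 4944 brightest genes 19.1% were called lower. The lower shares of nuclear pores (20.9%), H2A.Z exchange (22.9%), ubiquitin ligases (23.8%) and translation factors (14.3%) lay close to that or below. Those of splicing factors (41.3%) and heat shock genes (38.9%) were larger, and the part of level was not tested. Splicing factors and nuclear RNAs had 19 of 46 lower and 1 higher, including TRA2A (-0.60), HNRNPA3 (-0.58), SF3B1 (-0.48) and HNRNPH1 (-0.45). This count moved with the setting, with 9 lower after the further quantile normalization, 6 without shDNMT1#1 replicate 1, 5 without shDNMT1#2 replicate 2 and 4 when a gene's probe sets were averaged. Nuclear pores and transport had 9 of 43 lower and 0 higher, led by KPNA3 (-1.28) and NUP54 (-1.24), with KPNA2 (-0.75) and NUP50 (-0.56). Ubiquitin ligases had 10 of 42 lower and 0 higher, including UBE2S (-0.97) and DCAF6 (-0.52), and 6 or 5 lower without shDNMT1#1 replicate 1 or shDNMT1#2 replicate 2. Heat shock genes had 7 of 18 lower and 1 higher, with BAG3 (-0.80), HSPB1 (-0.60) and DNAJB6 (-0.52) lower and DNAJB4 (0.43) higher, against 5 lower and 3 higher after the further quantile normalization and 4 lower without shDNMT1#1 replicate 1 or shDNMT1#2 replicate 2. Among 23 histone genes 4 were lower, including H2AZ1 (-0.81), H2AZ2 (-0.62) and MACROH2A1 (-0.52), and H2BC12 was higher (0.68). H2A.Z exchange and remodelling had 8 of 35 lower and 0 higher, with HMGB2 (-1.19), ACTL6A (-0.82), SMARCA5 (-0.82) and SMARCD1 (-0.53), and 5 lower without shDNMT1#2 replicate 2. A second probe set of HMGB2, at a mean of 8.02, gave -0.05. Cytosolic ribosomal proteins stood close together, with 2 of 44 higher, RPS16 (0.32) and RPS14 (0.27), and 2 lower, RPL18 (-0.31) and RPL11 (-0.30), although the further quantile normalization called 14 higher and 1 lower. Ribosome biogenesis had 3 of 35 in each direction, with NOLC1 (0.37) and NOP16 (0.36) higher and WDR43 (-0.52) and NIP7 (-0.44) lower, and that normalization gave 12 higher and 2 lower. Translation factors had 5 of 35 lower and 2 higher, with EIF4G2 (-0.56), EIF1AX (-0.41) and EIF4H (-0.38) lower and EIF2B1 (0.49) higher. After the same normalization 1 was lower and 10 were higher. Other probe sets of EIF1AX gave -0.11, -0.14 and -0.03 and were not called.

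**Figure D4:**
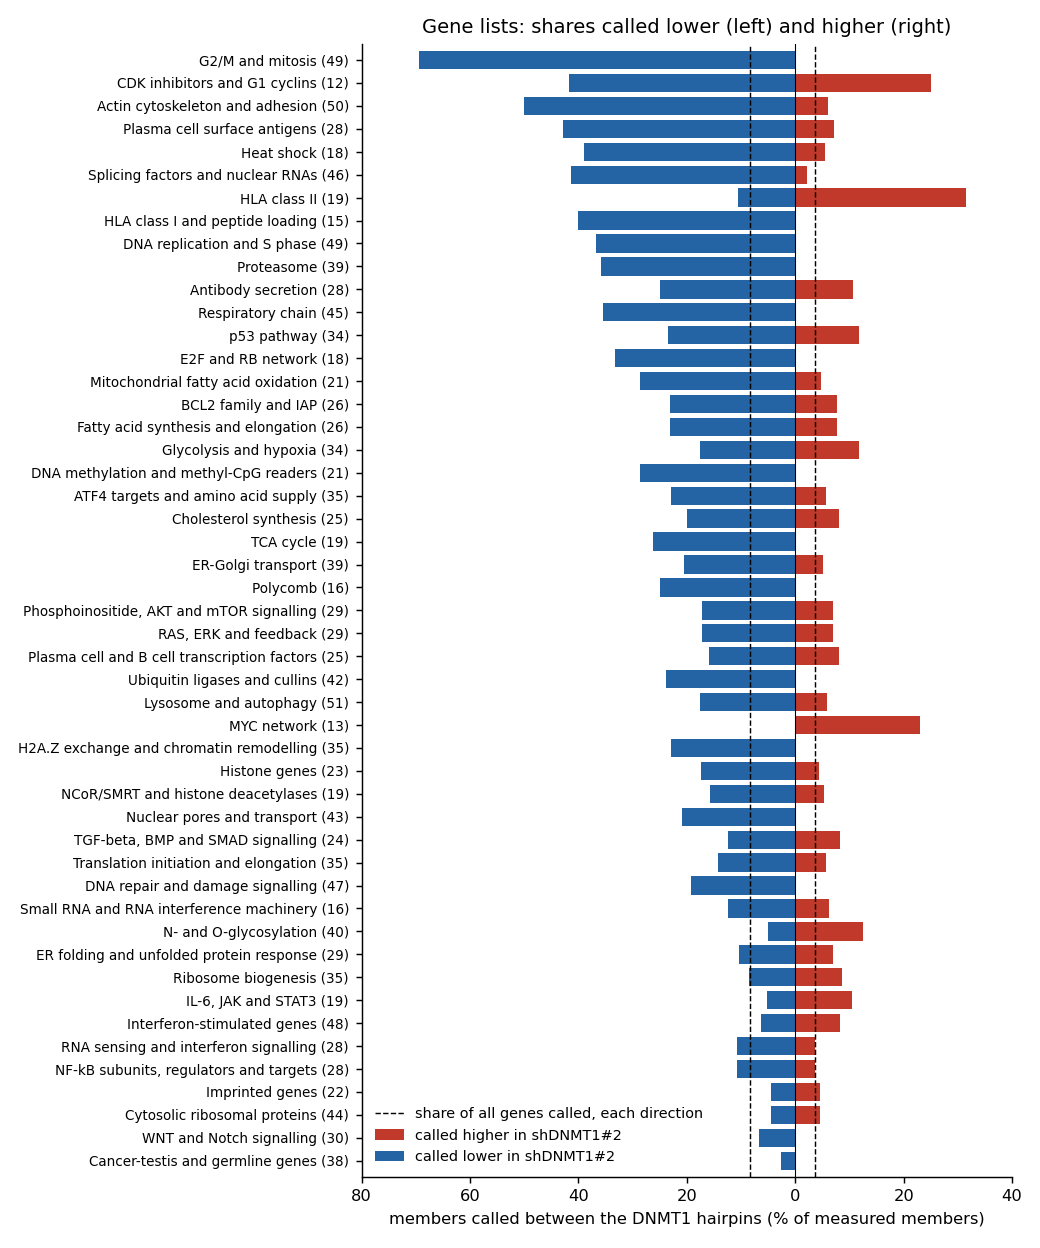
Share of the measured members (number in parentheses) of 49 gene lists called lower (blue, left) and higher (red, right) in shDNMT1#2 than in shDNMT1#1, in percent, ordered by the share called. Dashed lines mark the shares over all genes, 8.39% lower and 3.57% higher; G2/M and mitosis reaches 69.4% lower, and cancer-testis and germline genes, at 2.63%, lie at the bottom.

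Genes of the DNA methylation machinery were partly lower in shDNMT1#2, in a count that moved with the arrays used. Of 21 genes of DNA methylation and methyl-CpG reading 6 were lower in shDNMT1#2 and 0 higher, including the reader and glycosylase MBD4 (-0.53), UHRF2 (-0.45), TET1 (-0.45) and MBD2 (-0.38). That count was 1 without shDNMT1#1 replicate 1, 2 without shDNMT1#2 replicate 1 and 0 without shDNMT1#2 replicate 2. UHRF1 stood at 8.74 and 8.51 in shLuc, at 6.94 and 7.01 in shDNMT1#1 and at 7.03 and 7.10 in shDNMT1#2. It lay at 31.8% and 33.9% of control, and the difference of 0.09 ± 0.11 had a 95% interval of -0.14 to 0.33. Among Polycomb genes EZH2 (-0.73), RBBP7 (-0.49), RBBP4 (-0.46) and PHF19 (-0.38) were lower, 4 of 16, with 2 without shDNMT1#2 replicate 2. Among co-repressor genes 3 of 19 were lower, TBL1XR1 (-0.49), HDAC2 (-0.39) and HDAC7 (-0.36), and HDAC5 was higher (0.32). The lower calls were 5 without shDNMT1#1 replicate 2 and 1 without shDNMT1#2 replicate 2. HDAC3, the target of the other hairpins, stood at 7.09 and 6.53 against 6.39 and 6.28 (-0.48 ± 0.18, limma adjusted p = 0.097).

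Genes that DNA methylation is known to silence gave few calls. Of 38 measured cancer-testis and germline genes, 1 was called between the hairpins: SYCP3, of the meiotic synaptonemal complex, stood at 9.72 and 9.37 in shDNMT1#1 and at 8.84 and 8.66 in shDNMT1#2 (-0.79 ± 0.11), with shLuc at 9.77 and 9.84. Against shLuc, 0 of the 38 were called with shDNMT1#1, where 8.15% of all genes were called, and 9 with shDNMT1#2, where 26.8% were called. Of those 9, 6 were higher and 3 lower, and the medians of the list were 0.11 and 0.20 in the order of the hairpins. The list is dim: its median level was 4.43, against 6.39 over all genes, and 17 of the 38 had a mean of at least 5. Among the 4944 genes of lowest level, 3.18% were called higher and 1.29% lower between the hairpins. The few calls therefore do not show that these genes stayed silent. Among 22 imprinted genes SGCE was lower (-1.0 ± 0.13) and MEST higher (0.40 ± 0.10) in shDNMT1#2. The machinery of RNA interference itself had 2 of 16 lower, TNRC6B (-0.77) and the Dicer partner PRKRA (-0.74), and the other Dicer partner TARBP2 was higher (0.52).

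Set against control, the hairpins differed in how many genes they moved. With shDNMT1#1, 1611 genes (8.15%) were called against shLuc, 265 (1.34%) higher and 1346 (6.81%) lower. With shDNMT1#2, 5303 genes (26.8%) were called, 2297 (11.6%) higher and 3006 (15.2%) lower. Both counts use the same 2 control arrays. More genes were thus called with shDNMT1#2. The difference in the DNMT1 transcript between the hairpins (0.29, log2) was not called, and its part in these counts was not tested. The array shDNMT1#1 replicate 1 differed from shLuc replicate 2 by a root mean square of 0.211, about as much as from its own replicate (0.209).

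A knockdown is usually described by the mean of its hairpins, and that mean minus shLuc was called for 3992 genes (20.2%), 1317 (6.66%) higher and 2675 (13.5%) lower. Of these, 1358 (34.0%) were also called between the hairpins, where 12% of all genes were. For 2052 genes (51.4%) the 95% interval of the hairpin difference lay within -0.5 to 0.5, against 74.7% of all genes, and 13 genes met both criteria. The shares differed by direction: of the 1317 higher genes 139 (10.6%) were called between the hairpins and 955 (72.5%) had the narrow interval, whereas of the 2675 lower genes 1219 (45.6%) were called and 1097 (41.0%) had it. Among the 160 genes (0.809%) at least 2-fold changed in the mean, 122 (76.3%) were called between the hairpins and 22 (13.8%) had the narrow interval. The mean and the difference come from the same 4 hairpin arrays, so nothing particular to these genes is read from the shares. Without shLuc replicate 1 the calls in the mean fell to 1365, of which 793 (58.1%) were called between the hairpins. Without shDNMT1#2 replicate 2 the count called in both was 878, and without shDNMT1#1 replicate 1 it was 1063 of 4875 (21.8%).

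The largest mean changes included genes on which the hairpins were close. Besides UHRF1 and CCNA2, these were the desmosomal gene PKP2, which stood at 8.70 and 8.65 in shLuc, at 7.07 and 6.55 in shDNMT1#1 and at 6.50 and 6.84 in shDNMT1#2 (difference -0.14 ± 0.14), EVI2B (-0.08), SLC25A43 (-0.11) and DPYSL2 (-0.18). SKP2, which directs degradation of p27 (0.06), and NPNT (-0.24) were the others. On the higher side the nucleolar gene RRP1B stood at 8.19 and 8.03, then 9.42 and 9.02, then 9.42 and 9.11 (0.04 ± 0.13). TRIM22 (0.09), TDO2 (0.19), TIAM1 (-0.09), RNF149 (0.16), the ferritin light chain FTL (0.02), SLC16A12-AS1 (0.13) and the growth factor receptor IGF1R (0.09) were likewise close. Each of these 16 genes was called against shLuc with each hairpin by itself, on its brightest probe set. That largely follows from their choice by a large mean change and a narrow hairpin difference. Both calls also share the 2 shLuc arrays, so they are no independent support. Other probe sets with a mean above 5 gave mean changes of -1.61 for CCNA2, -1.03 for PKP2 and -0.60 for SKP2. They gave 0.86 for FTL and 0.25 for RRP1B, but only 0.11 and 0.08 for IGF1R, 0.10 for TIAM1 and 0.05 for NPNT. Between the hairpins, that of CCNA2 differed by 0.37 and those of IGF1R by -0.37 and -0.21, none of them called.

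Other large mean changes were carried unevenly. AIDA and HSD17B12, with mean changes of -1.81 and -1.68, were not called with shDNMT1#1 alone (limma adjusted p = 0.073 and 0.052). PLEKHA3 (-0.81), RNF168 (-1.56), ABHD3 (-2.08), E2F8 (-0.72), RACGAP1 (-1.47) and BOLA3, of iron-sulfur cluster assembly (-1.16), were below control with both hairpins and further below with shDNMT1#2. On the higher side CXCL10, CDKN1A and LAMP3 (0.55) were above control with both and further with shDNMT1#2. The cofilin gene CFL2 (0.90) and PLAAT4 (1.07) were called against shLuc with shDNMT1#2 only (limma adjusted p = 0.16 and 0.12 with shDNMT1#1). OSTM1 was raised more with shDNMT1#1, and PLK2 and CRYBB1 were called higher with shDNMT1#1. With shDNMT1#2, PLK2 lay 0.37 above control and was not called (limma adjusted p = 0.098), and CRYBB1 was called lower.

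**Figure D5:**
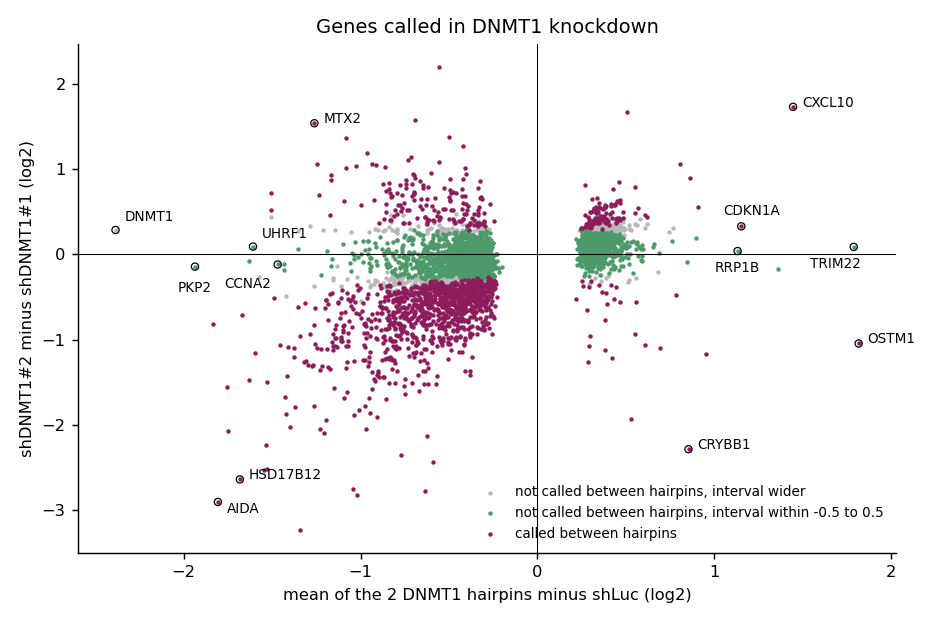
The 3992 genes called in the mean of the 2 DNMT1 hairpins minus shLuc (horizontal axis, log2), against the difference between the hairpins (vertical axis, log2). Purple points are the 1358 genes also called between the hairpins, green points were not called and have a 95% interval within -0.5 to 0.5, and grey points are the rest; at the left, PKP2, UHRF1 and CCNA2 lie near 0 on the vertical axis and AIDA and HSD17B12 far below it.

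For a statement about a function the same count can be made list by list. Of 41 genes of G2/M and mitosis called in the mean of the hairpins, all lower, 31 were called between the hairpins and 9 had the narrow interval. Of 32 such replication genes, 18 were called between the hairpins and 9 had it. In actin and adhesion 24 genes were called in the mean and 20 of them between the hairpins. In the respiratory chain the numbers were 14 and 11, and in the list of nuclear pores and transport 27 and 8, with 16 narrow intervals. Interferon-stimulated genes had 11 calls in the mean, of which 2 were called between the hairpins and 8 had the narrow interval. Over all genes called in the mean, 34.0% were called between the hairpins and 51.4% had the narrow interval. These list counts are a description, and differences between lists were not tested.

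The 2 HDAC3 hairpins differed to a similar extent, with 2492 genes (12.6%) called between them, 1750 (8.85%) higher and 742 (3.75%) lower in shHDAC3#2. No array is shared by these 2 comparisons, although the model estimates a common spread. Of the genes called between the DNMT1 hairpins, 808 were also called between the HDAC3 hairpins, which is 34.2% of the former and 32.4% of the latter. This count takes no account of direction. For example, RRM2 was lower with the second hairpin of both pairs (-1.83 and -1.70), but CSTB was lower in shDNMT1#2 (-3.23) and higher in shHDAC3#2 (0.75). In the HDAC3 comparison taken by itself, 38 of 49 genes of G2/M and mitosis were lower in shHDAC3#2 than in shHDAC3#1 and 0 higher. The cause of a difference between hairpins, be it depth of knockdown at the protein level, pairing with other messages, infection or handling of the cells, was not tested.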

How the data were processed

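For 54675 probe sets the authors deposited log2 values, and the submitters' processing notes name RMA as the method; the sources used here do not state its version or whether all arrays went through 1 run. GEO's annotation of the platform names the genes: 41097 had 1 gene symbol, 1801 several and 11777 none. The former stood for 19775 genes, each read by its brightest probe set, judged over the 10 arrays. Genes were fitted with limma 3.58.1 in R 4.3.3 (lmFit, eBayes with a trend), all 5 groups in 1 model with 5 residual degrees of freedom, and the contrast shDNMT1#2 minus shDNMT1#1 was tested two-sided, with Benjamini-Hochberg adjustment over all genes and calls at an adjusted p under 0.05. The number of arrays limits the precision. The fit was tested on simulated data.

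Named genes were both targets, the 15 highest and 15 lowest differences among called genes (LOC and open reading frame names left out), per list the 4 called members furthest apart, MYC, CDKN1A, IRF4, PRDM1, UHRF1, TRIM22 and CXCL10, and, of genes called in the mean of the hairpins, the 8 largest changes in each direction with an interval within -0.5 to 0.5 and the 8 called between the hairpins. The members and the 54 gene lists (1567 of 1745 entries measured) were chosen with earlier results of these data known. Alternatives were another filter, probe set choice, normalization, variance model, weights, arrays in the fit and the replicate number as a block. Probe sets that can cross-hybridize were told by their name endings (_s_at, _x_at or _a_at) alone. Without them 16788 genes remained, some read by a dimmer probe set. A call lost there therefore does not show cross-hybridization. Promoters came from RefSeq (GRCh38.p14).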

Additional observations from a re-analysis of the deposited data

Results flagged for a closer look

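In 16 genes named above, each hairpin was called against shLuc in opposite directions and the difference between the hairpins was itself called (limma, adjusted p under 0.05). With shDNMT1#1 below control and shDNMT1#2 above it were MZB1 (difference 2.20), HOPX (1.56), CLDND1 (1.55), SLC30A7 (1.22), ACVR1C (1.21), HLA-DPA1 (1.17) and ZDHHC9 (1.15). With shDNMT1#1 above control and shDNMT1#2 below it were CSTB (-3.23), LPXN (-2.83), RECQL (-2.78), LGALS1 (-2.44), CRYBB1 (-2.29), SGK1 (-1.93), CCR1 (-1.41), CTSB (-1.27) and NEU1 (-0.77). For these genes the mean of the 2 hairpins describes neither hairpin: that of MZB1 was -0.55, called lower, although MZB1 lay above control in both shDNMT1#2 arrays. HOPX, ZDHHC9 and LPXN were not called on the probe sets left when those that can cross-hybridize were removed, and that of LPXN is dim. Groups of 2 arrays are too small to look for outlying arrays.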

How the results depend on the processing

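The calls between the hairpins moved by more than 1.5 times under the following alternatives. Higher calls numbered 1107 after a further quantile normalization and 445 with only the 4 DNMT1 arrays. At least 2-fold calls numbered 117 when a gene's probe sets were averaged. Genes called in the mean of the hairpins and between them numbered 888 without probe sets that can cross-hybridize. Leaving out 1 array at a time gave 1417 to 2253 calls, 393 to 729 higher, 1024 to 1837 lower, 185 to 302 at least 2-fold, and 793 to 1308 in the mean and between the hairpins; the lone array of a group was then assumed to vary like the other groups. With a replicate block the calls were 2122 (599 higher, 1523 lower) and 1221 in the mean and between the hairpins; same-numbered arrays of the hairpins did not deviate together (r = 0.014 over genes), so the numbers share only a name.

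Without probe sets that can cross-hybridize, 14 named genes changed sign on another probe set: MBD4 (0.31), TET1 (0.083), HDAC7 (0.21), BCL6 (-0.077), ITGB1 (0.35), SPCS2 (0.014), B2M (0.042), CASP8 (0.036), MACROH2A1 (0.40), MLX (-0.083), MAX (-0.021), ATP5PB (0.061), IDH3A (0.21) and DCAF6 (0.064). MACROH2A1 was called there (limma adjusted p = 0.039) and the other 13 were not; the cause was not tested. Over 213 named differences, 2451 values kept direction and side of the threshold, 265 lost the call, 3 gained it and 14 changed sign. Of 16 genes on which the hairpins were close, 172 values kept the narrow interval and 28 lost it. With 2 arrays a hairpin, an uncalled gene is not shown to be equal, and RMA understates changes of dim transcripts.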
